A study of Mus musculus with 2 samples.

Results

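The enteroendocrine hormone genes are 10 transcripts made by the hormone-secreting cells of the gut lining: Gip, Cck, Sct, Gcg, Pyy, Nts, Sst, Ghrl, Chga and Tph1. They were found by gene name among the gene probes of both arrays, which gave 10 genes of 26582 and 15 probes, 5 genes with 1 probe and 5 with 2. The RNA labelled knockout came from the intestine of male C57BL/6 mice, 20 weeks old and on normal diet, described as lacking GDE5 (Gpcpd1) in the gut only; the RNA labelled wild type came from males of the same age and diet. GDE5 splits glycerophosphocholine and so frees choline, and the design asks which intestinal transcripts differ without it. The number of mice named in the series text is 5. Pooling, the stretch of intestine taken and the promoter that restricts the deletion to the gut are not stated in the labels or the series text. Both RNAs were hybridised together on 2 dual-colour arrays with swapped dyes, the RNA labelled knockout carrying Cy3 in replicate 1 and Cy5 in replicate 2.

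Enteroendocrine cells are scattered singly through the intestinal epithelium, arise from the same crypt stem cells as absorptive and goblet cells, and release peptides or serotonin in response to food. Each hormone is made from a longer precursor, which convertases cut at paired basic residues, and several of the peptides are then amidated at their end. K cells make Gip, L cells Gcg and Pyy, I cells Cck, S cells Sct, N cells Nts, D cells Sst, X cells Ghrl and enterochromaffin cells serotonin through Tph1, although single cells can make several of these; Chga is a granule protein of most of the types.

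The probe sequences below are those of the Gip probe, both Ghrl probes and the Tph1 probe with the larger ratio, the 3 hormone genes with the largest mean ratios, and of the probes for Pyy and Nts that span a cleavage site of the precursor, where capitals mark the codon pair for lysine and arginine. All lie in coding sequence; the first Ghrl probe covers the part of the precursor from which obestatin is cut, and the Nts probe covers the end of mature neurotensin. They were read from the array design, 5′ to 3′ on the strand of the transcript, with mm9 positions.
Gip, A_52_P313098, chr11:95886745-95887966, plus strand, across an intron: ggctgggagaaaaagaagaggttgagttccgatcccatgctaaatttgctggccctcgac
Ghrl, A_51_P464000, chr6:113667101-113669108, minus strand, across an intron: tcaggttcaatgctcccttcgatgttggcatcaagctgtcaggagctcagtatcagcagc
Ghrl, A_52_P675556, chr6:113666248-113667090, minus strand, across an intron: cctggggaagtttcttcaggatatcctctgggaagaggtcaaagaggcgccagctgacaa
Tph1, A_52_P613868, chr7:53912586-53912645, minus strand: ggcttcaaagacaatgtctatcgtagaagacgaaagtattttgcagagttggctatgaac
Pyy, A_52_P366462, chr11:101968311-101968370, minus strand: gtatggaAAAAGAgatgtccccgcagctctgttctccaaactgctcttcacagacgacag
Nts, A_51_P485756, chr10:101944967-101945026, minus strand: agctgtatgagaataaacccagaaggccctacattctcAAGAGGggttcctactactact

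Signals are given as the scanner software's processed intensity, in arbitrary units, and ratios as log2 of knockout over wild type with the mean ± SD of the 2 arrays (n = 2). Intensities of different probes are not set against each other, since probes differ in how well they hybridise. Where signals are summed over a marker list, the brightest probes weigh most, and a sum is compared between channels only. In replicate 1, 75.3% of the spots were well above background in the knockout channel and 69.3% in the wild-type channel; in replicate 2 they were 70.3% in the knockout channel and 76.1% in the wild-type channel. At 3 of its 4 probes Gpcpd1 had a higher mean signal in the RNA labelled knockout (0.63 ± 0.85, 0.45 ± 0.16 and 0.82 ± 0.07), and the last was at -0.12 ± 0.25. The labels do not say which part of the gene was deleted, so these probes may lie outside it, and every direction rests on the dye labels alone. Both arrays were on one slide, and the labels do not say whether they share RNA extracts. The p-values thus reflect how far the 2 arrays differ, and that difference may be technical. With 1 residual degree of freedom, limma took most of each standard error from the spread of all 29064 tested probes.

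No hormone gene passed the test. Of the 15 probes, 13 were tested, since at least 1 genotype was well above background in both hybridisations. By limma at an adjusted p under 0.05, 0 of the 13 were called, where 0.275% of all tested probes were (0.186% higher and 0.0895% lower). Gip came closest, 1.53-fold higher in the RNA labelled knockout, and Ghrl was 1.27-fold and 1.16-fold higher at its probes, all in the same direction on both arrays. Tph1 was 1.23-fold and 1.37-fold lower at its probes. At an unadjusted p under 0.05 there were 2 of the 13 probes, one of Gip and one of Tph1, beside 5.16% of all tested probes. By sign alone, 4 of the 13 were higher on both arrays (20.7% of all tested probes were), 5 were lower on both (21.5% were), and 4 went opposite ways. These probes had a median SD of 0.13 between arrays, beside 0.19 over all tested probes, with Nts and Cck at 0.32 and 0.31. Over the 13 probes the median size of the mean log2 ratio was 0.13, beside 0.10 over all tested probes.

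**Figure D1:**
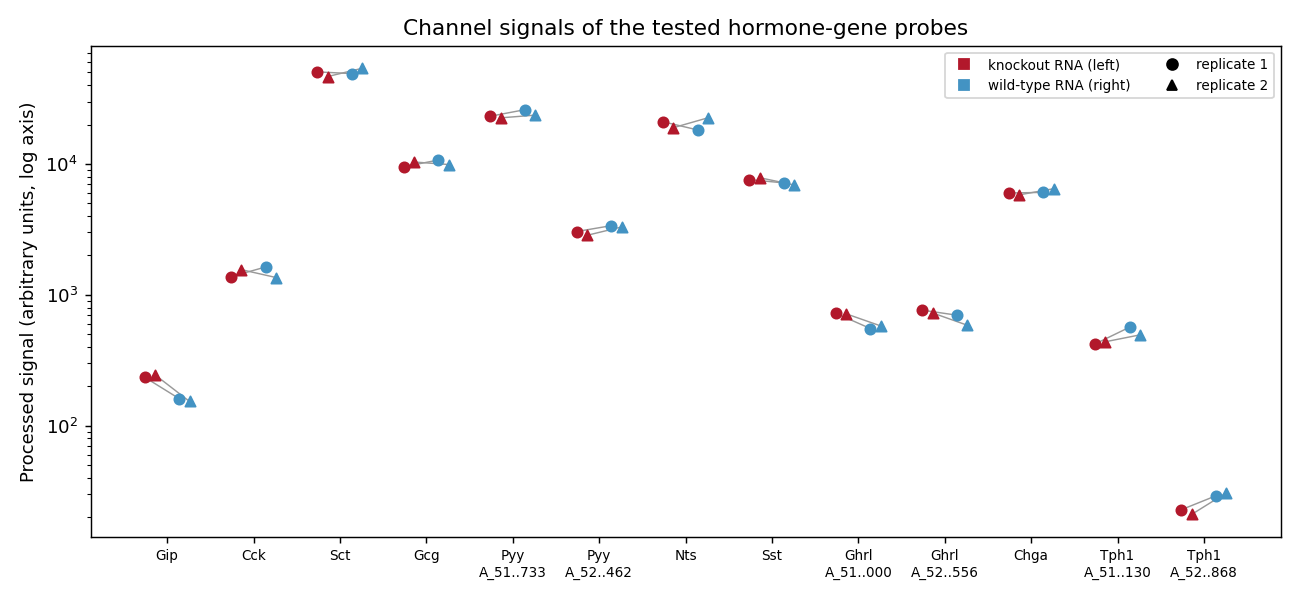
Processed signal (arbitrary units, log axis) of the 13 tested hormone-gene probes, with RNA labelled knockout left and RNA labelled wild type right, circles for replicate 1 and triangles for replicate 2, and a line joining both channels of one array. Both lines slope down for Gip, Ghrl and Sst and up for Pyy, Chga and Tph1; heights are not comparable between probes.

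**Figure D2:**
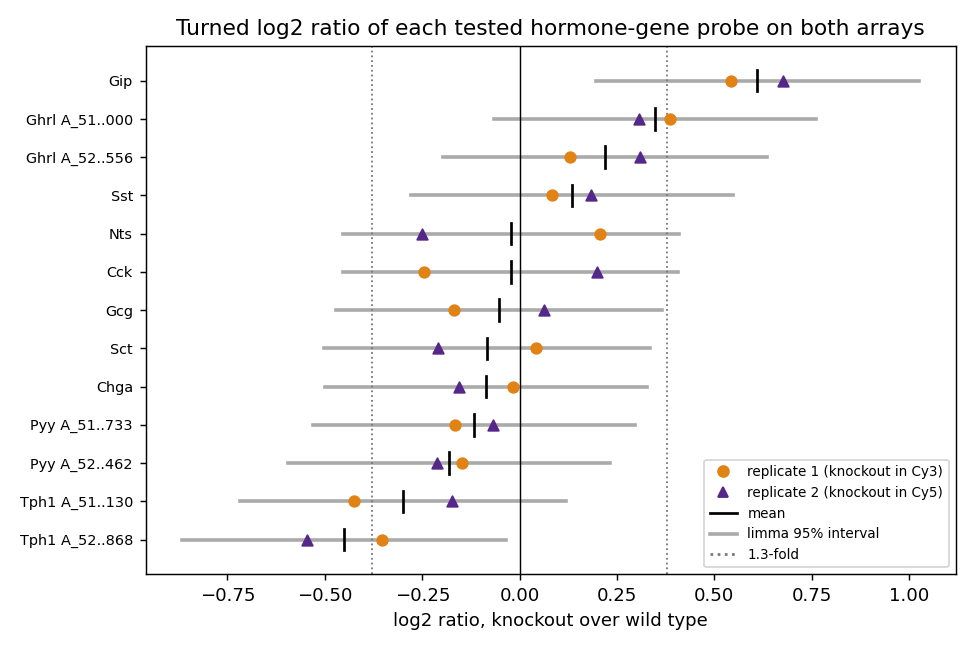
Log2 ratio of knockout over wild type for each tested hormone-gene probe, replicate 1 as circles, replicate 2 as triangles, the mean as a black tick and limma's 95% interval in grey, with dotted lines at 1.3-fold. The Gip points alone both lie past 1.3-fold, and the Cck, Sct, Gcg and Nts points lie on both sides of 0.

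Gip encodes the glucose-dependent insulinotropic peptide, which K cells of the duodenum and jejunum release after a meal and which raises insulin secretion. Its single probe had 235 and 245 in the RNA labelled knockout of replicates 1 and 2, against 161 and 153 in the RNA labelled wild type. The knockout channel was the brighter in both dyes, as it was at 20.7% of all tested probes. The log2 ratios were 0.54 and 0.68, a mean of 0.61 ± 0.09 with a 95% interval of 0.20 to 1.02 (limma adjusted p = 0.430 over all tested probes). On the upper side that interval reaches 2.03-fold. Gip was the only hormone gene at least 1.3-fold higher on both arrays, a size that 2.02% of all tested probes reached, and none of the 13 probes reached 1.5-fold in either direction (0.575% of all tested probes were that much higher on both, and 0.251% lower). The 1.3-fold size was chosen after the values were seen. In the scanner software's own error model no hormone probe had a p under 0.01 on both arrays, as 0.444% of all tested probes had in the higher and 0.145% in the lower direction; Gip was under 0.01 on replicate 2 only.

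The Gip ratio was smaller when background correction and dye normalization were both replaced. With normexp correction and loess in place of the software's processing, and marked spots left out, it was 0.55 in replicate 1 and 0.08 in replicate 2, a mean of 0.31. With background-marked spots left out as well, it was 0.55 and 0.32, a mean of 0.44. Of 43379 gene spots, 0 in replicate 1 and 47 in replicate 2 had a background mark, and the Gip spot had none. Gip was below 1.3-fold on replicate 2 in both cases.

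Gip is a gene of the upper small intestine, so markers of gut regions are given beside it. Of 8 proximal small intestine markers 6 were tested, 3 were higher and 2 lower on both arrays, and limma called 2 of them higher: the lactose-splitting enzyme Lct (1.69 ± 0.03, adjusted p = 0.00035) and the fatty acid binding protein Fabp1 (1.39 and 1.21 on the arrays, adjusted p = 0.00471). Of all 18993 genes, read at 1 probe each, limma called 31 higher. With normexp and loess, or without a filter on dim probes, it called no probe of any gene. The iron transporter Slc40a1 and the duodenal ferric reductase Cybrd1, both of the proximal gut, had -0.36 ± 0.33 and -0.30 ± 0.33. Another Cybrd1 probe had 0.22 ± 0.09. Summed over the 6 markers, signals were 29308 and 28716 in the RNA labelled knockout, against 21134 and 20863 in the RNA labelled wild type. Of 6 tested ileum markers none was higher and 2 were lower on both arrays, Fgf15 (-0.49 ± 0.09) and the bile acid exporter subunit Slc51b (-0.11 ± 0.14), with sums of 284839 and 333210 in the RNA labelled knockout against 350799 and 300210 in the RNA labelled wild type. Of 7 tested colon markers 4 were higher and 1 lower on both, with Insl5 at 0.23 ± 0.02, Retnlb at 0.13 ± 0.13 and Slc26a3 at -0.07 ± 0.00 (another probe at 0.23 ± 0.09), and with sums of 10357 and 10938 in the RNA labelled knockout against 10313 and 10657 in the RNA labelled wild type. The part of gut region in the Gip ratio was not tested. In whole tissue, moreover, fewer cells of a type and less RNA per cell cannot be told apart, for Gip and for every gene that follows.

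The promoter of Gip is shown because GATA factors are known, from work on the rat promoter in an enteroendocrine cell line, to act on the gene. It is the stretch of 250 bases before an annotated start in RefSeq on GRCm38.p6, chr11:96024295-96024544, plus strand. This start is not the outermost one annotated for the gene. Capitals mark the motif GATAA, searched on both strands.
Gip promoter: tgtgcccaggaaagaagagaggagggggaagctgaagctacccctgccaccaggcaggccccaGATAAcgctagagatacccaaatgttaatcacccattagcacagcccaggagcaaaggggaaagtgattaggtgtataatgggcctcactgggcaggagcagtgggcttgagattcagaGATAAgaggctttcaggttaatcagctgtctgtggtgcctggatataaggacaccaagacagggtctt
The motif occurred 2 times in this window and in the windows of 3 of the 10 hormone genes, the others being Cck and Nts. Of 32851 windows of the same length, 22.6% held it, a share of windows and not of genes, since some genes have several windows. No binding was measured in these data.

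Ghrl encodes ghrelin, the hunger-promoting peptide that X cells make, mostly in the stomach and less in the small intestine. Probe A_51_P464000 had 723 and 717 in the RNA labelled knockout, against 553 and 579 in the RNA labelled wild type. Probe A_52_P675556 had 765 and 728 in the RNA labelled knockout, against 700 and 587 in the RNA labelled wild type. At each probe the knockout channel was the brighter on both arrays, as at 20.7% of all tested probes. The mean log2 ratio was 0.35 ± 0.06 at the first (0.39 and 0.31) and 0.22 ± 0.13 at the second (0.13 and 0.31). The 95% intervals ran from -0.07 to 0.76 and from -0.20 to 0.63. The probes lie in different parts of one transcript and are not replicates of the condition. With normexp and loess and marked spots left out, the means were 0.15 and 0.14, and the second probe was at -0.01 in replicate 2. With background-marked spots left out as well, the means were 0.27 and 0.23, and both probes were higher on both arrays.

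Because ghrelin comes mainly from the stomach, stomach markers were read beside it. Of 10 markers 5 were tested, and the mucosal genes Tff2, Gkn1 and Gkn2 and the pepsinogen gene Pgc were too dim to be tested. Among the tested, 1 was higher and 2 lower on both arrays: the proton pump subunits Atp4b (0.19 ± 0.06) and Atp4a (-0.09 ± 0.13) and the mucin Muc5ac (-0.31 ± 0.43), with another Muc5ac probe at -0.12 ± 0.45 and opposite on the arrays. Their sums were 233 and 337 in the RNA labelled knockout, against 337 and 249 in the RNA labelled wild type. The part of these markers' tissue in the Ghrl ratios was not tested.

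Sst encodes somatostatin, the peptide with which D cells and some enteric neurons restrain other hormones. Its probe was printed 10 times on each array, of which 9 and 8 spots were used. Averaged over spots, the signals were 7593 and 7852 in the RNA labelled knockout, against 7169 and 6910 in the RNA labelled wild type. The mean log2 ratio was 0.13 ± 0.07 (0.08 and 0.18, 95% interval -0.28 to 0.55). The knockout channel was brighter at 6 of 9 spots in replicate 1 and at 7 of 8 in replicate 2. Single spots ran from -0.20 to 0.51 and from -0.25 to 0.36, a spread of 0.22 and 0.19 (SD) that is larger than the mean. Of 10 enteric neuron markers 7 were tested, with none higher and 3 lower on both arrays; the neuropeptide Vip was at -0.22 ± 0.17, the neuronal filament gene Prph at -0.14 ± 0.04, and the neuronal RNA-binding protein Elavl4 at -0.03 ± 0.00 (another probe at -0.06 ± 0.63). The sums over these markers were 6695 and 7651 in the RNA labelled knockout, against 8627 and 7020 in the RNA labelled wild type.

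Tph1 encodes the tryptophan hydroxylase that sets the rate of serotonin synthesis in enterochromaffin cells. Probe A_51_P458130 (chr7:53902606-53902665, minus strand) had 422 and 439 in the RNA labelled knockout, against 567 and 495 in the RNA labelled wild type. Probe A_52_P613868 had 22.9 and 21.1 in the RNA labelled knockout, against 29.2 and 30.8 in the RNA labelled wild type, dim but well above background in both genotypes. At each probe the knockout channel was the dimmer on both arrays, as at 21.5% of all tested probes. The mean log2 ratio was -0.30 ± 0.18 at the first (-0.42 and -0.17) and -0.45 ± 0.14 at the second (-0.35 and -0.55, limma adjusted p = 0.862). The intervals ran from -0.72 to 0.12 and from -0.87 to -0.03. For the first probe the mean was between -0.30 and -0.21 under the alternatives that used both arrays. For the dimmer second probe it was -0.10 with normexp and loess and marked spots left out, with -0.19 and 0.00 on the arrays, and -0.09 with background-marked spots left out as well.

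Chga, chromogranin A, is the granule protein used as a general marker of enteroendocrine cells. Its probe had 6002 and 5807 in the RNA labelled knockout, against 6070 and 6473 in the RNA labelled wild type. The mean log2 ratio was -0.09 ± 0.10 (-0.02 and -0.16), and the interval from -0.50 to 0.33 holds differences of up to 1.42-fold lower and 1.26-fold higher. The 10 intestinal epithelium markers, tested in full, included none higher and 2 lower on both arrays, with the lectin Lgals4 at -0.13 ± 0.00 (another probe at -0.20 ± 0.34) and the transcription factor Cdx2 at -0.14 ± 0.07. Their sums were 1021524 and 1047922 in the RNA labelled knockout, against 1064015 and 1043874 in the RNA labelled wild type.

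The L cell hormones Gcg and Pyy had mean ratios no further than 1.13-fold from equal signal. Gcg encodes proglucagon, which intestinal L cells cut into the incretin GLP-1 and the growth-promoting GLP-2. Its probe A_51_P406253 (chr2:62312685-62312744, minus strand) had 9532 and 10353 in the RNA labelled knockout, against 10721 and 9907 in the RNA labelled wild type. The channels overlapped between the arrays, and the mean log2 ratio was -0.05 ± 0.16 (-0.17 and 0.06). The interval from -0.47 to 0.36 holds differences of up to 1.39-fold lower and 1.29-fold higher. All 10 spots of the probe were used on each array, with an SD of 0.07 and 0.11 between spots. The knockout channel was brighter at 0 of 10 spots in replicate 1 and at 8 of 10 in replicate 2, and the arrays' means lay further apart than the SD between spots on either. Its other probe, A_52_P534383, named after a cDNA clone, was not well above background in any channel and gives no fold.

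**Figure D3:**
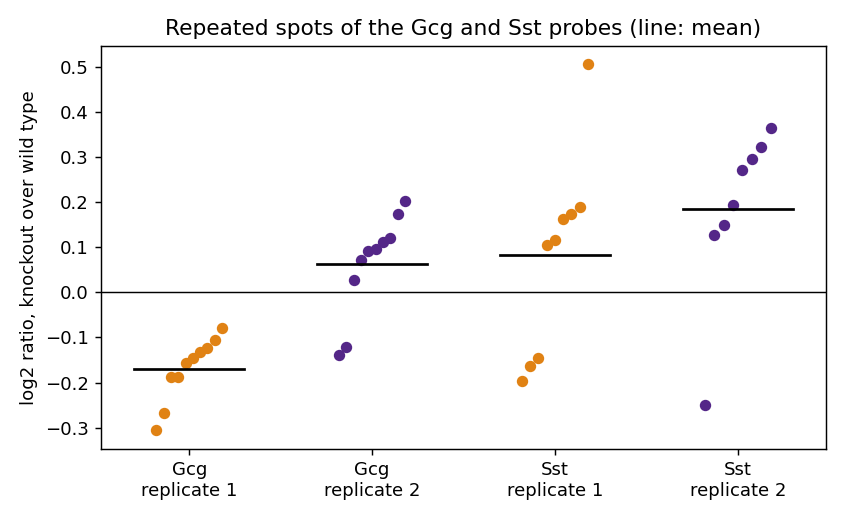
Log2 ratio of knockout over wild type at each used spot of the Gcg and Sst probes, replicate 1 in orange and replicate 2 in violet, with a line at the mean. All Gcg spots of replicate 1 lie below 0 and 8 of 10 in replicate 2 above it, while the Sst spots of both arrays lie on both sides of 0.

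Pyy encodes peptide YY, which slows gut transit and reduces food intake. The printed Pyy probe sequence holds a glycine codon, gga, just before the capitals, and that glycine is the amide donor of the mature peptide. Probe A_51_P241733 (chr11:101967990-101968049, minus strand) had 23162 and 22517 in the RNA labelled knockout, against 25982 and 23613 in the RNA labelled wild type. Probe A_52_P366462 had 3048 and 2852 in the RNA labelled knockout, against 3379 and 3303 in the RNA labelled wild type. The knockout channel was the dimmer on both arrays at both probes, as at 21.5% of all tested probes, and the steps were small. The mean log2 ratios were -0.12 ± 0.07 (-0.17 and -0.07) and -0.18 ± 0.04 (-0.15 and -0.21), with intervals from -0.53 to 0.30 and from -0.59 to 0.23. With normexp and loess and marked spots left out, each Pyy probe had opposite signs on the arrays, 0.30 and -0.54 at the second. With background-marked spots left out as well, the first was lower on both again (-0.16 and -0.06) and the second still had opposite signs (0.30 and -0.50).

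For Cck, Sct and Nts the arrays disagreed in sign. Cck encodes cholecystokinin, the I cell peptide that empties the gall bladder and stimulates pancreatic secretion. Probe A_51_P137322 (chr9:121399031-121399090, minus strand) had 1379 and 1559 in the RNA labelled knockout, against 1634 and 1358 in the RNA labelled wild type. Its log2 ratios of -0.25 and 0.20 averaged -0.02 ± 0.31, with an interval from -0.45 to 0.41. The second Cck probe, A_52_P539124, was well above background only for the RNA labelled knockout of replicate 1 and gives no fold.

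Sct encodes secretin, the S cell peptide that makes the pancreas release bicarbonate. Its probe (A_51_P234359, chr7:148464238-148464297, minus strand) had 50519 and 46588 in the RNA labelled knockout, against 49033 and 53883 in the RNA labelled wild type. The log2 ratios of 0.04 and -0.21 averaged -0.08 ± 0.18, with an interval from -0.50 to 0.33. Nts encodes neurotensin, an N cell peptide of the lower small intestine that promotes fat absorption. Its probe had 21007 and 18945 in the RNA labelled knockout, against 18208 and 22536 in the RNA labelled wild type, and ratios of 0.21 and -0.25 averaged -0.02 ± 0.32, with an interval from -0.45 to 0.41. With swapped dyes, opposite signs mean by design that the same dye was the brighter on both arrays. It was Cy5 for Cck and Gcg, and Cy3 for Sct and Nts, which adds nothing to the signs themselves.

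The other gene groups of the enteroendocrine cell were read with 1 probe per gene, the brightest tested. Over all 18993 genes read in this way, 20.2% were higher and 21.1% lower on both arrays, the median log2 ratio was -0.02, and limma called 31 genes higher and 19 lower. The 10 hormone genes had 3 higher, 3 lower and 4 opposite, with a median of -0.04. No gene of the companion lists below was called.

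**Figure D4:**
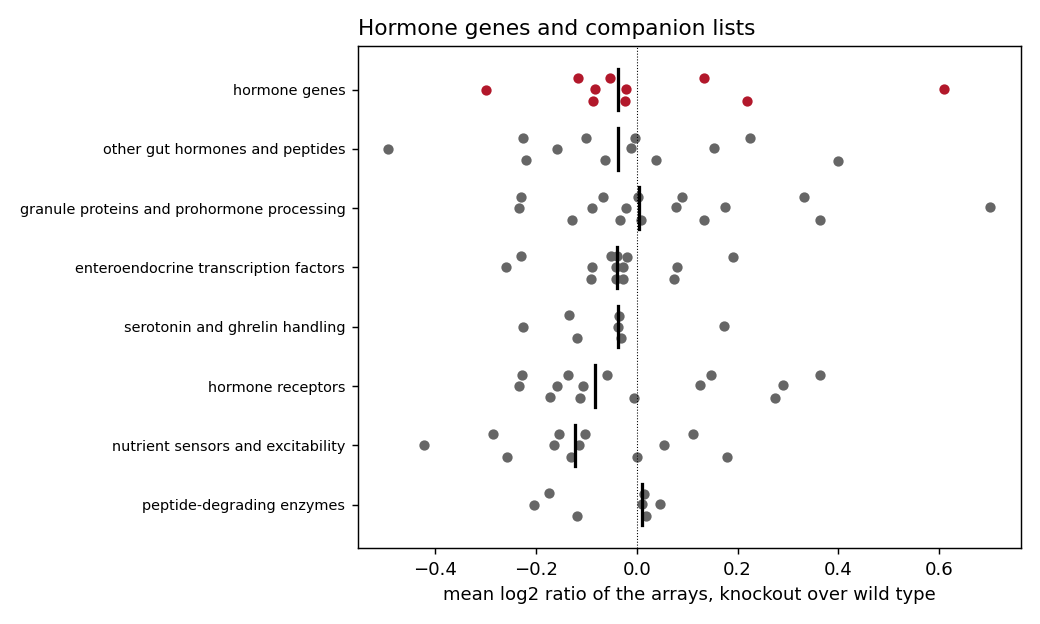
Mean log2 ratio of knockout over wild type for the tested genes of the hormone list (red) and of the companion lists (grey), brightest tested probe per gene, with a black line at each list's median. Medians lie between -0.12 and 0.01, Pam lies furthest right at 0.70, and Gip is the rightmost hormone gene.

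Other gut hormones and peptides had 12 of 14 genes tested, 3 higher and 4 lower on both arrays, with a median of -0.04. Fgf15, the ileal hormone that restrains bile acid synthesis, was at -0.49 ± 0.09 (adjusted p = 0.712) and at -0.46 ± 0.37 at another probe. The neuropeptide galanin, Gal, was at 0.40 ± 0.21. Insl5, the peptide of colonic L cells, was at 0.23 ± 0.02, and the nesfatin precursor Nucb2 at -0.16 ± 0.03.

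Granule proteins and prohormone processing enzymes had 16 of 18 genes tested, 6 higher and 2 lower on both arrays, with a median of 0.00. Pam, the enzyme that amidates peptides such as peptide YY, cholecystokinin and secretin, had log2 ratios of 0.77 and 0.64, which is 1.63-fold higher (0.70 ± 0.09, limma adjusted p = 0.264). With the scanner software's ratios this was further from equal signal than any hormone gene. It was past 1.5-fold on both arrays, as 0.575% of all tested probes were in the higher direction. The Pam ratio with normexp and loess is not given here. The convertase chaperone Scg5 was at 0.36 ± 0.23 and the exocytosis protein Cplx2 at 0.33 ± 0.08, with 0.09 ± 0.04 and 0.12 ± 0.19 at other Cplx2 probes. The calcium sensor Scgn was at -0.23 ± 0.09. The convertase genes themselves were near equal signal, Pcsk1 at -0.02 ± 0.10 and Pcsk2 at 0.08 ± 0.08, and were named after their values were seen.

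Transcription factors of the lineage had 14 of 16 genes tested, 2 higher and 3 lower on both arrays and 9 opposite, with a median of -0.04. Pax4, needed for serotonin and somatostatin cells, was at -0.26 ± 0.06 and Nkx2-2, which acts in cell type choice, at 0.19 ± 0.00. Insm1 and Myt1, factors of endocrine differentiation, were at 0.08 ± 0.10 and -0.05 ± 0.00. Neurog3, the factor that starts the lineage, went opposite ways (-0.22 and 0.17) and was named after its values were seen.

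Genes of serotonin and ghrelin handling had 7 of 11 tested, 1 higher and 2 lower on both arrays, with a median of -0.04. The vesicular monoamine transporters were at -0.13 ± 0.02 for Slc18a2 and -0.23 ± 0.23 for Slc18a1, beside -0.08 ± 0.36 and 0.03 ± 0.57 at their other probes. The amine oxidase Maob was at 0.17 ± 0.09.

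Receptors of the hormones had 14 of 20 genes tested, 3 higher and 5 lower on both arrays, with a median of -0.08. The cholecystokinin receptor Cckar was at 0.36 ± 0.03 and the glucagon receptor Gcgr at 0.28 ± 0.12. Npy4r and Npy2r, receptors of the peptide YY family, were at -0.14 ± 0.03 and -0.23 ± 0.19. Nutrient sensors and excitability genes had 12 of 18 tested, 2 higher and 4 lower, with a median of -0.12. Among them were the lipid receptors Lpar5 (-0.29 ± 0.17), Ffar4 (-0.26 ± 0.23) and Gpr119 (0.18 ± 0.09) and the potassium channel subunit Abcc8 (0.11 ± 0.04). All 7 peptide-degrading enzymes were tested, none was higher on both arrays, and their median was 0.01.

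Markers of other epithelial cell types are given beside the hormone genes. Over all 18993 genes, 20.2% were higher and 21.1% lower on both arrays. All 7 tested tuft cell markers of 9 were higher on both arrays, none called, with Rgs13 at 0.79 ± 0.15, Alox5ap at 0.74 ± 0.17, Hpgds at 0.56 ± 0.23 and Gfi1b at 0.40 ± 0.10, and sums of 4340 and 4643 in the RNA labelled knockout against 3044 and 3251 in the RNA labelled wild type. All 5 tested Paneth cell markers of 6 were lower on both, none called, with Lyz1 at -0.52 ± 0.19, Itln1 at -0.44 ± 0.22, Ang4 at -0.34 ± 0.06 and Mmp7 at -0.22 ± 0.15, and sums of 420888 and 404249 in the RNA labelled knockout against 570350 and 529938 in the RNA labelled wild type. Of 7 goblet cell markers 2 were higher on both and none lower, with Clca1 at 0.14 ± 0.12 and Fcgbp at 0.08 ± 0.10 (another probe at -0.02 ± 0.55, opposite on the arrays), and sums of 881255 and 927952 in the RNA labelled knockout against 887902 and 846551 in the RNA labelled wild type. Means of all tested markers ran from 0.09 to 0.79 for tuft cells and from -0.52 to -0.22 for Paneth cells. The part of these cell types in the hormone gene ratios was not tested.

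Pancreas also makes Gcg, Sst, Pyy and Ghrl, so its markers are given too. The islet genes Ins1, G6pc2 and Mafa were too dim to be tested; of the 3 tested islet markers 1 was lower on both, the glucose transporter Slc2a2 (-0.36 ± 0.16, another probe at -0.60 ± 0.13), which enterocytes also express, and the sums were 474 and 622 in the RNA labelled knockout against 630 and 736 in the RNA labelled wild type. Of 6 tested exocrine pancreas markers 4 were lower on both, with the elastase Cela3b at -0.65 ± 0.08, the amylase Amy2a5 at -0.43 ± 0.50, the carboxypeptidase Cpb1 at -0.29 ± 0.29 and the elastase Cela1 at -0.06 ± 0.02 (another probe at -0.10 ± 0.29), and sums of 439 and 513 in the RNA labelled knockout against 570 and 516 in the RNA labelled wild type. Of 10 skeletal muscle markers 8 were higher on both and called by limma, with the myosins Myh8 at 2.74 ± 0.04 and Myh4 at 2.56 ± 0.13 (another probe at 2.30 ± 0.06), near-identical genes whose probes can share transcripts, and sums of 5173 and 5100 in the RNA labelled knockout against 2494 and 2464 in the RNA labelled wild type. Of all 18993 genes limma called 31 higher, and it called no probe with normexp and loess or without a filter on dim probes. The called Myh1 and Pvalb probes were dim in the wild-type channel of both arrays, so their ratios give no plain fold. Another Myh1 probe was at 0.17 ± 0.43. The muscle actin Acta1 was lower on both arrays (-0.09 ± 0.07) and the creatine kinase Ckm went opposite ways (0.06 ± 0.32); both were named after their values were seen. What share of the RNA these cells gave was not tested.

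**Figure D5:**
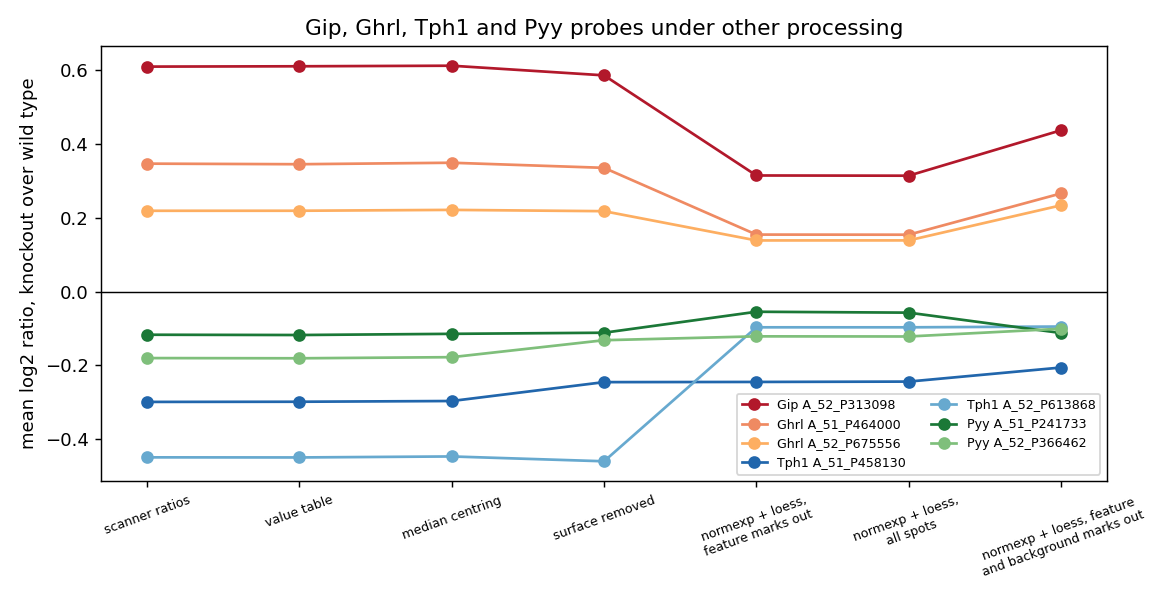
Mean log2 ratio of knockout over wild type for the Gip, Ghrl, Tph1 and Pyy probes with the scanner software's ratios and under 6 other ways of making the ratios. No line crosses 0; Gip lies between 0.31 and 0.61, and Tph1 probe A_52_P613868 between -0.46 and -0.09.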

How the data were processed

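The deposited scanner files come from Agilent Feature Extraction, version 11.5.1.1 per the file headers and 9.5 per the submitters' processing notes, for array design 014868. Per the labels' protocols, RNA was extracted with QIAzol and cRNA was labelled with Cy3 or Cy5. Per the file headers, the processed intensity of each spot was background-subtracted, detrended over the array and dye-normalized, and the mean and local background intensity were deposited beside it. The deposited log10 ratio is processed Cy5 over Cy3, and the deposited p-value is the software's error-model p of that ratio. A value table deposited for the series repeats these log10 ratios, unturned, within 5e-04.

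From there, log10 ratios were put on the log2 scale and turned to knockout over wild type, control spots and spots with a feature outlier mark (133 and 193 of 43379) were left out, and spots of a probe were averaged. Of 41174 probes, 29064 had at least 1 genotype well above background in both hybridisations and entered limma 3.58.1 in R 4.3.3. The fit used lmFit and eBayes, with the mean against 0 and Benjamini-Hochberg at 0.05. In simulated data it recovered 73 of 100 probes changed by a log2 of 1 and 100 of 100 changed by 2, with 23 false calls. No smaller change was simulated. The simulated noise was drawn from limma's own fitted variances and was independent between arrays. It lacked the negative correlation between arrays given below, so the counts need not hold for the real arrays. Lists took the brightest tested probe per gene, with symbols updated through transcript accessions for 29416 probes. The 10 genes, the lists and the choice of the software's ratios were made with earlier results of these data known. Named are Gpcpd1, the 10 genes, and up to 4 genes per list with the largest smaller ratio of the arrays among those of one sign; Pcsk1, Pcsk2, Neurog3, Acta1 and Ckm fall outside this. Some genes that the rule names are not reported here. Between arrays, turned ratios had Pearson r = -0.01 and Spearman rho = -0.15 across tested probes. With normexp and loess these were -0.37 and -0.35. Genes are not independent replicates. No spot was saturated. Having 2 arrays limits the precision. No genome was used here, and promoters are from the RefSeq table of GRCm38.p6.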

Additional observations from a re-analysis of the deposited data

How the results depend on the processing

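Of 114 values of the 13 probes under the alternatives that used both arrays, 111 kept their sign and none was called (smallest adjusted p = 0.359, for Gip with median centring). The 3 that turned were Sct with normexp and loess (0.0542 with marked spots left out, 0.0512 with all spots) and Cck at 0.000413 with background-marked spots left out as well, an alternative chosen after seeing the data. Many of the 114 values could not have turned. The brightest probe per gene, no filter on dim probes and probes well above background in both genotypes all refit the same ratios. The value table and median centring hardly moved the ratios. On 1 array alone, Cck ran from -0.245 to 0.199, Gcg from -0.170 to 0.0635, Sct from -0.210 to 0.0431 and Nts from -0.250 to 0.206. With normexp and loess (marked spots left out, or all spots), 3 hormone probes were lower on both, not 5, and 3 higher, not 4. The brightest probe per gene also gave 3 and 3, because 1 probe each of Ghrl, Pyy and Tph1 drops out. The ratios of the kept probes were unchanged. With a surface removed 4 were lower on both, and Chga had opposite signs. Hormone probes at least 1.3-fold higher on both numbered 0 with each form of normexp and loess. With an array surface removed, 1 was at least 1.3-fold lower on both, the Tph1 probe A_52_P613868 at -0.38 and -0.54. Over all probes limma called 80, but 0 with each form of normexp and loess and without a filter on dim probes, 51 with probes well above background in both genotypes, 47 with a surface removed, 123 with median centring and 38 with the brightest probe. The count at least 1.5-fold apart on both arrays was 240, but 23 with normexp and loess (marked spots left out, or all spots), 49 with background marks left out too, 679 without the filter, 136 with probes above background in both genotypes and 159 with the brightest probe; 1 array alone gave 1649 to 1894. The cause was not tested. The test of within-array ratios is already paired by array. No further replicate block could be added, because the ratios form 1 group. Weak signal limits the second Tph1 probe and leaves 1 probe each of Cck and Gcg without a fold.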
